A study of Mus musculus with 12 samples.

Results

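The genes described here encode the machinery that turns a muscle action potential into calcium release. They are the T-tubule calcium channel subunits Cacna1s, Cacnb1, Cacng1 and Cacna2d1, the ryanodine receptors Ryr1 and Ryr3, the channel adaptor Stac3 and the junctophilins Jph1 and Jph2. The 9 genes were chosen by name for this function, out of 18193 genes measured, and all of their probe sets with a single gene symbol were taken, 21 in all. The brightest probe set of each gene, by its mean over all 12 arrays, gave its main value. Expression was measured in the tongue of C57BL/6J mouse embryos at embryonic day 13.5, and each sample was hybridised to its own Affymetrix mouse expression array. The 6 mutant samples were Myf5-Cre;Smad4flox/flox, with both copies of Smad4 floxed, and the 6 control samples were Myf5-Cre;Smad4flox/+, with 1 floxed and 1 wild-type copy. Both groups therefore carried the Cre recombinase transgene. By design it acts in cells that use, or descend from cells that used, the muscle gene Myf5. Mesenchyme from other sources, epithelium, nerve and vessels of the tongue are by that design meant to keep Smad4. In which cells Smad4 was deleted was not measured here. The labels give neither the litter nor the number of tongues behind a sample, so the p-values measure only the spread between these samples.

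In skeletal muscle the surface membrane folds inward as T-tubules, which meet the sarcoplasmic reticulum at junctions called triads. Cacna1s forms the pore and voltage sensor of the L-type calcium channel in the T-tubule, and when the membrane depolarises it opens Ryr1, the calcium release channel of the sarcoplasmic reticulum, by direct mechanical coupling. Cacnb1, Cacng1 and Cacna2d1 are the auxiliary subunits of that channel, Stac3 links the voltage sensor to release, and the junctophilins hold both membranes together. Mice without Cacna1s, Cacnb1, Ryr1 or Stac3 have muscle that does not contract on excitation and die at birth.

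Values are deposited RMA signals on a log2 scale. Adjusted p-values are those of limma, corrected by Benjamini and Hochberg across the 18193 genes, and a gene passed below 0.05. Array medians ran from 6.09 to 6.17, and array signals carry no counting depth. Smad4 itself differed by −0.15 ± 0.10 (SE, adjusted p = 0.427, limma). Mutant 1 read 11.58, while the other mutants read 12.18 to 12.30 and the controls 12.16 to 12.35, and without mutant 1 the difference was −0.037 (adjusted p = 0.732, limma). Where its probe sets lie relative to the deleted part is unknown here, so this gene does not check the genotype. RNA came from whole tongue, in which fewer muscle cells and less RNA per muscle cell cannot be told apart.

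Of the 9 genes, 8 were lower in the mutant tongue and none was higher. Over all genes tested, 4.80% were lower and 6.30% higher. The median difference was −0.75 for the 9 genes and 0.01 for all genes. At least a 1.5-fold reduction was seen for Stac3, Cacna1s, Ryr1, Cacng1 and Jph2, 5 of 9, against 1.47% of all genes. Every mutant array lay below every control array for 4 of the 9 genes, Cacna1s, Ryr1, Stac3 and Jph2, against 2.90% of all genes. Ryr3 did not pass the test.

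**Figure D1:**
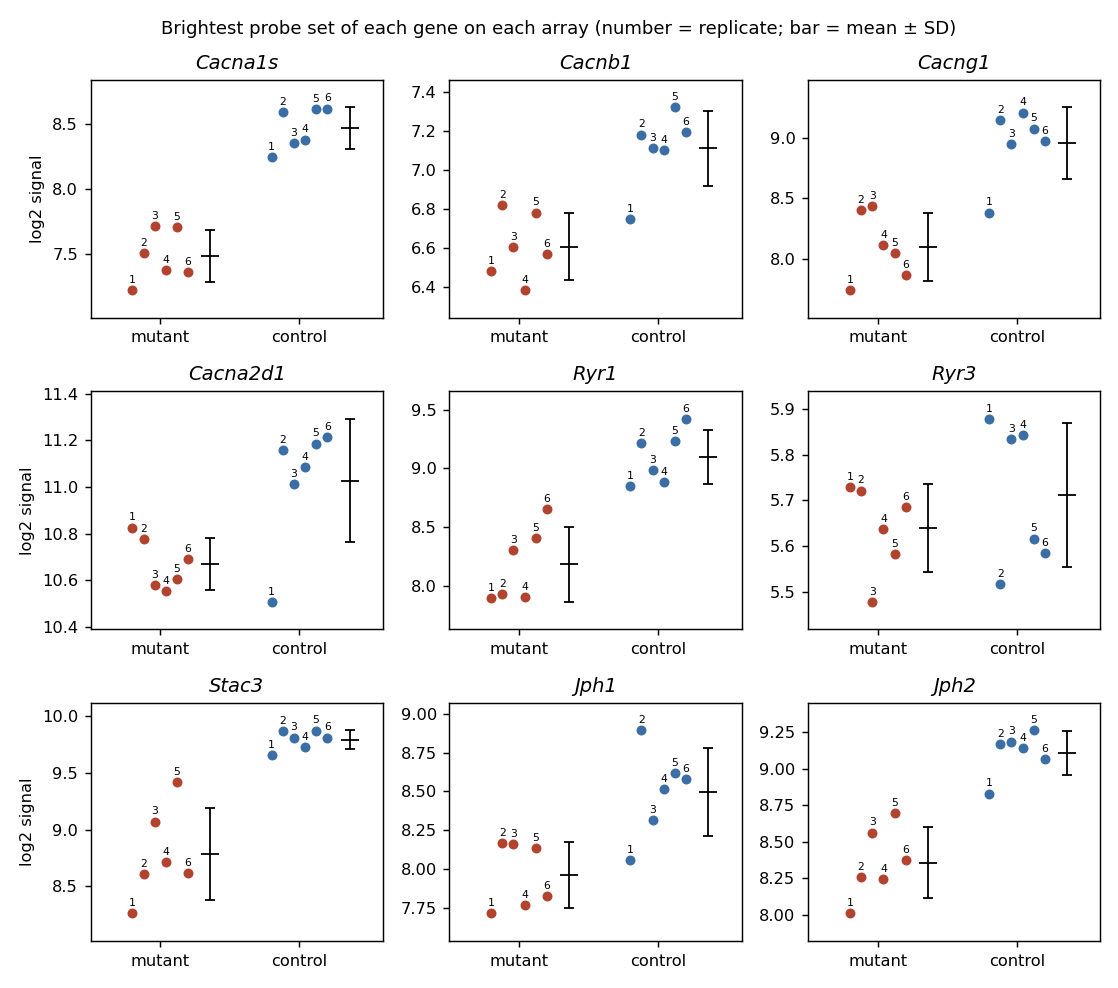
Log2 signal (y axis, scaled per panel) of the brightest probe set of each gene on the 6 mutant arrays (red, left) and the 6 control arrays (blue, right), numbered by replicate, with mean ± SD beside each group. The groups are separate for Cacna1s, Ryr1, Stac3 and Jph2, and control 1 is the lowest control array for 8 of the 9 genes.

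The upstream sequences of Cacna1s and Ryr1, the voltage sensor and the release channel it opens, are shown. They were picked because the log2 differences of both genes, −0.99 and −0.92, lay close together. That closeness does not show that the genes changed alike, and shared regulation was not tested. Both sequences are from RefSeq on build GRCm38.p6, each 250 bases upstream of the listed start, which matched 5 of the 9 genes by symbol. Capitals mark matches to CANNTG, the E-box letters that myogenic factors such as Myod1 can bind. The Cacna1s sequence lies at chr1:136052561-136052810 on the plus strand and that of Ryr1 at chr7:29125152-29125401 on the minus strand.
Cacna1s: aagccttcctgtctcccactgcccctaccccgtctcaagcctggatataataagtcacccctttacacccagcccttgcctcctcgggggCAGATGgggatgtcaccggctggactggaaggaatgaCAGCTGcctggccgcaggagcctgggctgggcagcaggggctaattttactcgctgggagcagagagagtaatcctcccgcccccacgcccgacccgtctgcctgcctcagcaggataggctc
Ryr1: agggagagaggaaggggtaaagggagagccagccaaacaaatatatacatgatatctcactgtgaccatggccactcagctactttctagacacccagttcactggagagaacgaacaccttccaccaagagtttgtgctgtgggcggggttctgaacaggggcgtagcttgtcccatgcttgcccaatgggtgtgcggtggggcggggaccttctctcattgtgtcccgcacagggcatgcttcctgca
The Cacna1s window held 2 matches, CAGATG at 160 bases and CAGCTG at 123 bases before the start, and the Ryr1 window held 0. Of the other genes with a sequence, Jph2 had 1 match, again CAGCTG, at 9 bases before the listed start, and Cacnb1 and Cacna2d1 had 0. Both strands were searched, and CANNTG reads as the same pattern on each. Over 27025 promoters of the same length, 66.0% held CANNTG and 12.8% held CAGCTG, which is 1 form of CANNTG. None of the 5 windows held the MEF2 consensus, which 3.01% of all promoters did. These matches describe letters in the windows and were not tested for binding.

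Cacna1s, the pore and voltage sensor, was lower in every mutant. Its only probe set, 1420442_at, read 7.22 to 7.71 (median 7.44) in mutants, against 8.25 to 8.62 (median 8.49) in controls. The highest mutant array therefore lay below the lowest control array. The mutant mean was 7.48 ± 0.20, against 8.47 ± 0.16 in controls (SD, n = 6 each). This is a difference of −0.99 ± 0.10 (SE), or 1.98-fold lower with a 95% interval of 1.72 to 2.29 (adjusted p = 0.000170, limma), the 75th lowest of the 18193 differences.

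Cacng1, the transmembrane γ subunit of the muscle channel, fell nearly as far, with a difference of −0.86 ± 0.15 (SE) on the log2 scale (adjusted p = 0.00240, limma). Its levels were 7.74 to 8.44 (median 8.08) in mutants and 8.38 to 9.21 (median 9.02) in controls. The overlap was due to control 1, at 8.38, since the other 5 controls read 8.95 or more. Without control 1 the difference was −0.97 (adjusted p = 0.000344, limma). Control 1 was picked from these same values, and leaving out the lowest control can only enlarge the difference. Over all fits that left out 1 array it ran from −0.97 to −0.78 (adjusted p up to 0.00738, limma).

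Cacnb1, the intracellular β subunit that carries the pore to the membrane, fell by 0.50 ± 0.10 (SE), a 1.42-fold reduction (adjusted p = 0.00441, limma). Its brightest probe set, 1426108_s_at, read 6.38 to 6.82 (median 6.59) in mutants, against 6.75 to 7.32 (median 7.15) in controls. Here too only control 1, at 6.75, lay among the mutants. The other 3 Cacnb1 probe sets were dimmer and differed by −0.12, −0.08 and −0.05, none of them passing over all probe sets (adjusted p = 0.561, 0.681 and 0.833, limma).

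Cacna2d1, the extracellular α2δ subunit, which is also made outside muscle, showed the smallest reduction among the 8 genes and the least stable call. Its brightest probe set read 10.55 to 10.83 (median 10.65) in mutants, against 10.51 to 11.22 (median 11.12) in controls. Control 1 was below all 6 mutants, while the other controls were above them all. The difference was −0.36 ± 0.11 (SE, adjusted p = 0.0448, limma). The call was lost in 11 of 12 fits that left out 1 array (adjusted p up to 0.0967), and only the fit without control 1 kept it, at −0.46 (adjusted p = 0.000553, limma). A second probe set, 1449999_a_at, fell by 0.48 (adjusted p = 0.0227 over all probe sets, limma) with every mutant below every control. Adjusted in that way, the brightest probe set did not pass (adjusted p = 0.0712, limma).

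Stac3, the adaptor that couples the voltage sensor to release, had the largest reduction by a narrow margin over Cacna1s. The order of these genes reversed in 4 of 13 alternatives. Its only probe set, 1458087_at, read 8.26 to 9.42 (median 8.67) in mutants and 9.66 to 9.87 (median 9.81) in controls. The controls were tightly grouped and the mutants spread widely, with an SD of 0.41 in mutants and 0.08 in controls. Mutant 1 was lowest, at 8.26, and mutant 5 came nearest the controls, at 9.42. The difference was −1.01 ± 0.15 (SE), or 2.01-fold lower with a 95% interval of 1.61 to 2.51 (adjusted p = 0.000918, limma).

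Ryr1, the release channel of skeletal muscle, was lower by both of its probe sets. The brightest, 1427306_at, read 7.90 to 8.65 (median 8.11) in mutants, against 8.85 to 9.42 (median 9.10) in controls. Mutants 1, 2 and 4 formed the low end, at 7.90 to 7.93, and mutant 6 was highest. The mutant mean was 8.18 ± 0.32, against 9.10 ± 0.23 in controls (SD, n = 6 each), a 1.89-fold reduction with a 95% interval of 1.53 to 2.33 (adjusted p = 0.00125, limma). The second probe set, 1457347_at, lay under 6.13, the median of all probe sets, in every mutant and above it in 4 of 6 controls. It fell by 0.92 ± 0.14 (SE), the same amount as the brightest, again with no overlap between the groups (adjusted p = 0.00179 over all probe sets, limma).

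Ryr3, a release channel that contributes mainly in developing muscle and is also found in brain and other tissues, gave weak signals. Its brightest probe set read 5.48 to 5.73 (median 5.66) in mutants and 5.52 to 5.88 (median 5.73) in controls, and the groups overlapped over most of their range. All 3 of its probe sets lay under the median of all probe sets on all 12 arrays. The difference was −0.07 ± 0.07 (SE), with a 95% interval of −0.23 to 0.08 (adjusted p = 0.596, limma). Whether these signals lay above background was not tested. The second probe set, nearly as bright, gave a difference of −0.27 (adjusted p = 0.0546, limma over all probe sets) and was below all controls on 5 of 6 mutant arrays.

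The junctophilins Jph1 and Jph2, which anchor the sarcoplasmic reticulum to the T-tubule, were both lower by their brightest probe sets. Jph2 read 8.01 to 8.70 (median 8.31) in mutants, against 8.83 to 9.26 (median 9.16) in controls, with no overlap. It fell by 0.75 ± 0.11 (SE), a 1.68-fold reduction (adjusted p = 0.000735, limma). Jph1, the form typical of skeletal muscle, read 7.71 to 8.16 (median 7.98) in mutants and 8.06 to 8.89 (median 8.55) in controls.

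The Jph1 groups overlapped because control 1, at 8.06, lay below mutants 2, 3 and 5. The difference was −0.54 ± 0.13 (SE, adjusted p = 0.0162, limma). It lost its call without mutants 1 and 2 (−0.53, adjusted p = 0.0583, limma) and without control 6 and mutant 6 (−0.49, adjusted p = 0.0579, limma). The call was also lost without control 3, mutant 4 and mutant 6 (−0.49, adjusted p = 0.0994, limma) and in an unequal-variance test (adjusted p = 0.0549). The second probe set of each gene was dimmer and differed by −0.19 for Jph1 (adjusted p = 0.0850) and −0.15 for Jph2 (adjusted p = 0.374), neither passing over all probe sets (limma).

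Over all 21 probe sets of the 9 genes, 20 differences were below 0 and 9 passed, against 2.70% of all probe sets that passed as lower. The reductions that passed came from the brightest probe set of a gene, except for the second probe sets of Cacna2d1 and Ryr1. Of the 12 probe sets that did not pass, 7 lay under the median of all probe sets.

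**Figure D2:**
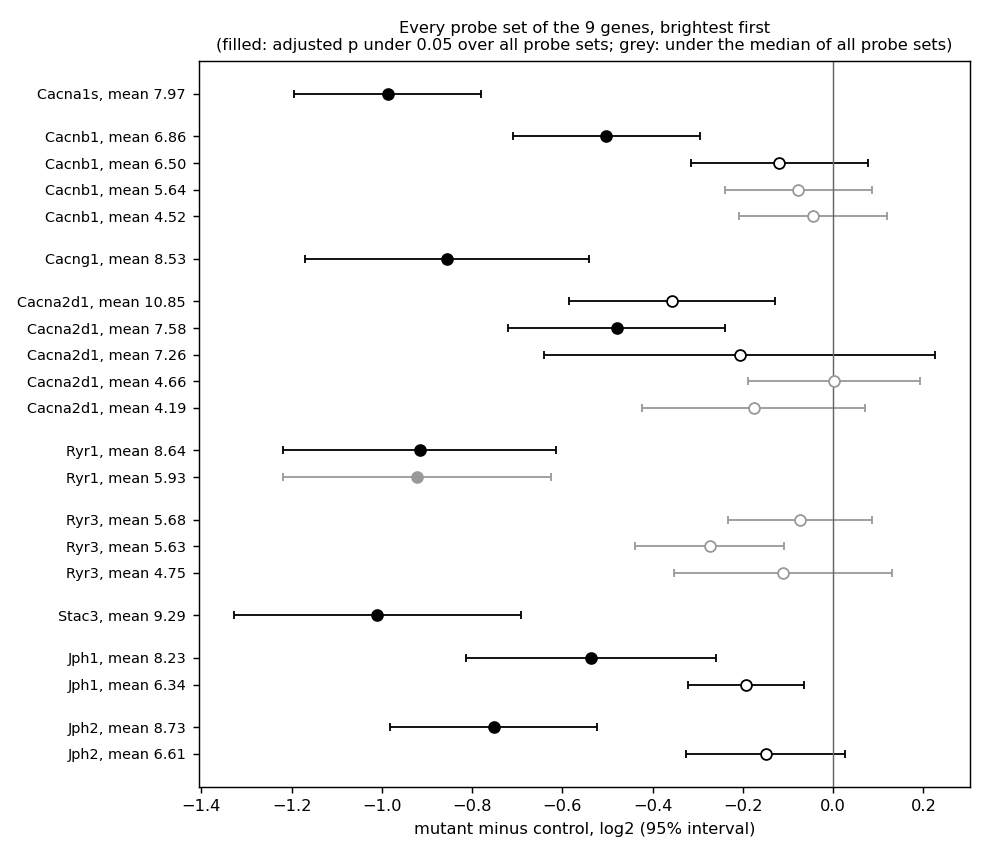
Mutant minus control difference (x axis, log2) with its 95% interval for every probe set of the 9 genes, labelled with its mean log2 signal over 12 arrays, brightest first within a gene. Both Ryr1 probe sets lie at −0.92, while the dimmer probe sets of Cacnb1, Jph1 and Jph2 lie nearer 0 than the brightest.

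Whether the genes responded by different amounts was tested for 7 pairs, as the log2 difference of both genes on each array, with an exact 2-sided permutation test over samples (smallest possible p = 0.00216) and adjustment over the 7 pairs. By their brightest probe sets, Cacna1s fell more than its auxiliary subunits Cacnb1 (−0.48, 95% interval −0.66 to −0.31) and Cacna2d1 (−0.63, −0.93 to −0.33). Each pair had an adjusted permutation p of 0.00505 and a lower pair difference than any control on 6 of 6 mutant arrays. The Cacnb1 probe set averaged only 6.86, against a median of 6.13 for all probe sets, and Cacna2d1 is also made outside muscle. The part of either in these values was not tested, so they do not show different responses within muscle cells. For Ryr1 minus Ryr3 the value was −0.84 (−1.32 to −0.37, adjusted permutation p = 0.00505), and −0.66 without mutants 1 and 2 (adjusted permutation p = 0.0556), with fewer samples tested. With Ryr3 dim and nearly level, this value is close to the Ryr1 difference alone and does not show that the receptors responded by different amounts.

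No difference was found between Cacna1s and its partners of voltage sensing and release. The pair difference was −0.07 for Cacna1s minus Ryr1 (95% interval −0.39 to 0.25, adjusted permutation p = 0.853), 0.02 for Cacna1s minus Stac3 (−0.23 to 0.27, adjusted permutation p = 0.853) and −0.13 for Cacna1s minus Cacng1 (−0.41 to 0.15, adjusted permutation p = 0.448). These intervals do not show that the genes changed alike. Jph1 minus Jph2 was 0.22 (−0.04 to 0.47, adjusted permutation p = 0.155). It passed without control 2, at 0.28 (adjusted permutation p = 0.0341), and its sign depended on the probe sets, with values from −0.39 to 0.56.

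The arrays differed within each genotype in a way shared by many of the genes. Mutant 1 had the lowest value of all 12 arrays for 6 of the 9 genes. Among controls, control 1 was lowest for 8 of the 9, and highest for Ryr3. Averaged over the 9 genes and set against the control mean, the mutants ran from −0.88 (mutant 1) to −0.49 (mutant 5), and the controls from −0.29 (control 1) to 0.11 (control 5). Without control 1, every mutant lay below every control for 8 of the 9 genes, against 4.09% of all genes. Control 1 was singled out from these same values, and leaving out a control can only keep or raise that count.

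Markers of differentiated muscle, a list of 18 genes such as Acta1, Myh3, Ttn and Ckm that holds none of the 9, moved with the same arrays. Of the 18, 17 fell, none rose, and the median was −0.67. Their mean on each array, set against the control mean, ran from −1.0 to −0.55 in mutants and from −0.35 to 0.19 in controls, and was lowest in mutant 1 and, among controls, in control 1. Of 4 measured muscle progenitor markers 2 fell (median −0.96). In the same mutants 8 of 9 neuron markers rose (median 0.71), as did 7 of 8 cranial mesenchyme markers (median 0.40), 4 of 6 cartilage markers (0.54) and 5 of 8 oral epithelium markers (0.32). Of 6 smooth muscle markers 3 fell, Tagln, Smtn and Acta2 (median of the 6 −0.23). Myh11 (0.04), Cnn1 (−0.13) and Rgs5 (0.55) did not pass. Of 5 heart markers 1 fell (−0.36), and 3 of the 5 lay under the median of all probe sets. Of 6 endothelium markers 1 rose (0.08), as did 1 of 6 macrophage markers (0.15), and of 4 Schwann cell markers 1 rose and 1 fell (−0.03). Over all genes 4.80% were lower and 6.30% higher, so 1 call in so short a list does not show a shift of a cell type. The part of these marker changes in the results for the 9 genes was not tested beyond the comparison with muscle markers that follows.

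**Figure D3:**
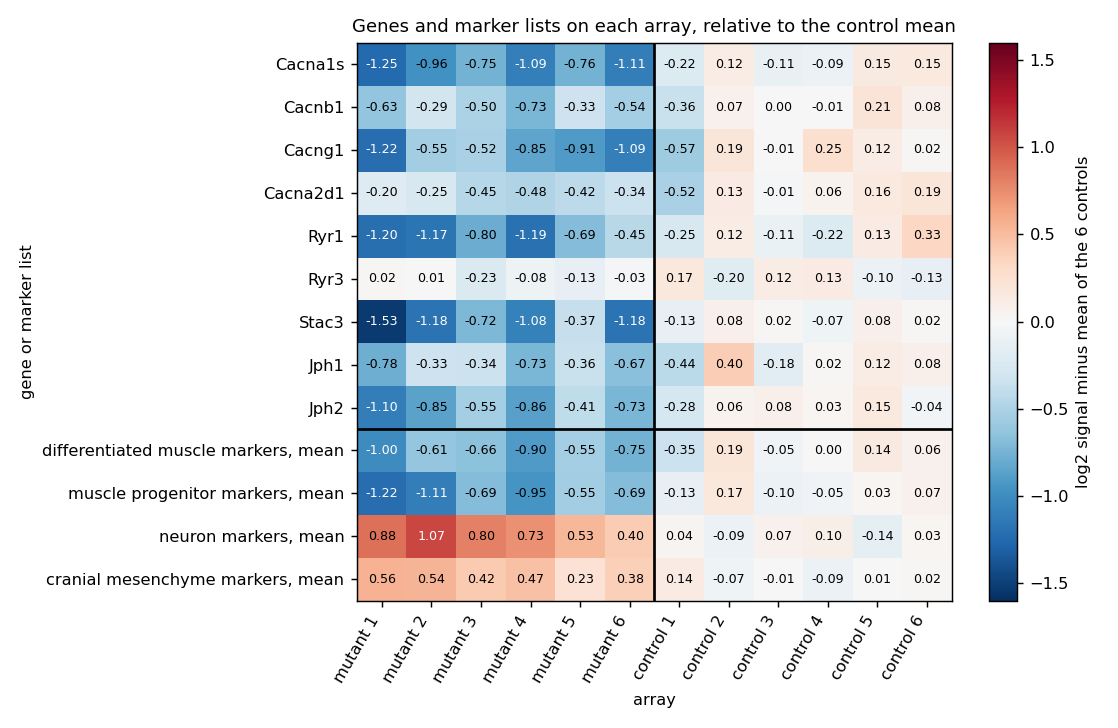
Log2 signal of each gene, and mean of 4 marker lists (below the line), on each array minus the mean of the 6 controls, with mutants on the left. Blue is lower and red higher than the control mean. Mutant 1 and control 1 are the lowest of their genotype for the muscle marker mean, at −1.0 and −0.35.

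To set the 9 genes beside muscle as a whole, the mean of the 18 muscle markers on each array was subtracted from every gene and all genes were fitted again. On this scale 97.8% of all genes were higher in mutants and 0.341% lower, because the muscle mean itself differed by −0.75. The muscle mean's own spread enters every gene. Of the 9 genes, 2 passed as higher relative to the muscle markers, and 7 did not pass. Cacna2d1 was higher by 0.39 (adjusted p = 0.00517, limma). Ryr3 stood at 0.67 (adjusted p = 5.25e-06, limma), a value that its dim, nearly level signal takes from the subtracted mean and that does not measure a change of Ryr3. Jph2, by its brightest probe set, tracked the muscle mean most closely, at −0.01 (95% interval −0.27 to 0.26). With the mean of all probe sets of each gene Jph2 stood at 0.23 (adjusted p = 0.0512, limma). Stac3 and Cacna1s stood at −0.26 (−0.54 to 0.01) and −0.24 (−0.51 to 0.03), below the muscle mean by amounts that did not pass (adjusted p = 0.0595 and 0.0768, limma). Ryr1 was at −0.17, Cacng1 at −0.11, Jph1 at 0.21 and Cacnb1 at 0.24. Over the 24 alternatives run on this scale, 1 to 4 genes passed as higher. In 6 of them 1 or 2 genes passed as lower, Stac3 in 5 and Cacna1s in 3, so whether these fell further than the muscle markers depended on the setting.

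**Figure D4:**
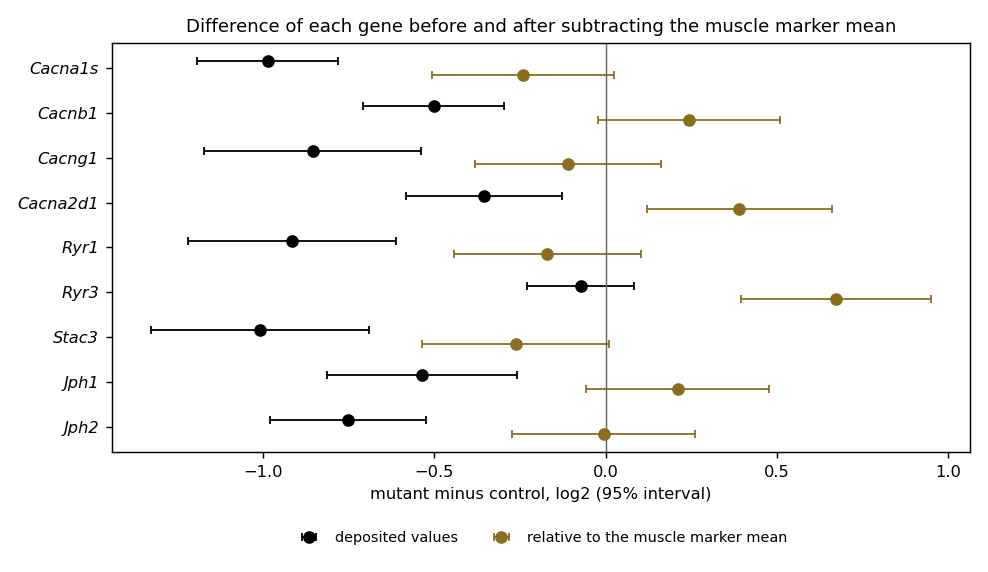
Mutant minus control difference (x axis, log2) with its 95% interval for each gene, from the deposited values (black) and after subtracting the mean of 18 muscle markers on each array (brown). After subtraction only Ryr3 and Cacna2d1 have intervals that leave out 0, at 0.67 and 0.39.

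The 9 profiles over the arrays were compared by the root mean square difference after centring each gene on its mean, which is smaller for more similar profiles. Among the 9, Cacnb1 and Jph1 were most alike (0.14), followed by Cacnb1 with Cacna2d1 (0.15) and Cacna1s with Jph2 (0.16) and Stac3 (0.17). Stac3 and Ryr3 were farthest apart (0.58). Among 12172 other genes above the median signal, the 5 closest to Cacna1s were Klhl40 (0.10), Dusp27 (0.10), Apobec2 (0.11), Unc45b, a chaperone of myosin (0.11), and Fndc5 (0.12). The 5 closest to Ryr1 were Gfra1, a co-receptor of the neurotrophic factor GDNF (0.12), the receptor Fgfr4 (0.14), the coactivator Eya2 (0.15), Mypn, a Z-disc protein (0.16), and Neb, the thin filament ruler nebulin (0.16). Each distance is over 12 arrays and includes the genotype difference, and each of these genes fell, with differences of −1.07 to −0.76 on the log2 scale.

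The paralogues of the 9 genes moved in both directions. Of 25 measured of 27 listed, 6 were higher and 2 lower, with a median of 0.08, against 6.30% and 4.80% over all genes. Cacna1d, an L-type pore subunit of neurons, endocrine cells and the cardiac pacemaker, rose by 0.57 ± 0.09 (SE), with levels of 8.37 ± 0.21 in mutants and 7.80 ± 0.12 in controls (SD, n = 6 each, adjusted p = 0.00140, limma). Cacng4, a relative of the γ subunit, rose by 0.33 (adjusted p = 0.00251). The T-type pore subunits Cacna1g and Cacna1h went in opposite directions, with a rise of 0.32 (adjusted p = 0.00657) and a fall of 0.44 (adjusted p = 0.00313). The dimmer second probe sets of Cacna1d, Cacng4 and Cacna1h differed by only 0.15, 0.17 and −0.17. None of these passed over all probe sets (adjusted p = 0.433, 0.299 and 0.468, limma). Ryr2, the cardiac ryanodine receptor, and Stac, a relative of Stac3, are named after their values were seen. The dim Ryr2 rose by 0.61, at 5.23 ± 0.25 in mutants and 4.62 ± 0.25 in controls (adjusted p = 0.00750, limma), but its second probe set differed by 0.02. Stac fell by 0.42 (adjusted p = 0.0193, limma). The neuron markers that rose in the same mutants (8 of 9) are given above, and their part in these rises was not tested.

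The partners of the channel complex at the triad and in the calcium store were lower more often than higher. Of 26 measured of 27 listed, 12 fell and 1 rose, with a median of −0.25, against 4.80% lower and 6.30% higher over all genes. The log2 difference was −1.63 for Sln (sarcolipin, an inhibitor of the calcium pump), −1.24 for Trdn (triadin, which anchors calsequestrin to the release channel), −1.03 for Atp2a1 (the fast muscle calcium pump) and −0.78 for Hrc (a calcium-binding protein of the store) (adjusted p = 0.000170, 0.000338, 0.000243 and 0.000390, limma). For each of these 4 genes every mutant lay below every control, against 2.90% of all genes. The 4 were picked by smallest p, a choice that favours groups without overlap. All 6 Trdn probe sets fell, with differences of −1.30 to −0.87. Of the 26, 13 did not pass, with differences from −0.28 for Speg to 0.13 for Fkbp1b. Among these 13, Dysf, Pln and S100a1 differed by −0.22, −0.18 and −0.18 (adjusted p = 0.527, 0.255 and 0.297, limma). Stim1, Orai1 and Mtm1 differed by −0.06, −0.06 and −0.09 (adjusted p = 0.638, 0.707 and 0.842, limma). All of these genes are named after their values were seen.

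**Figure D5:**
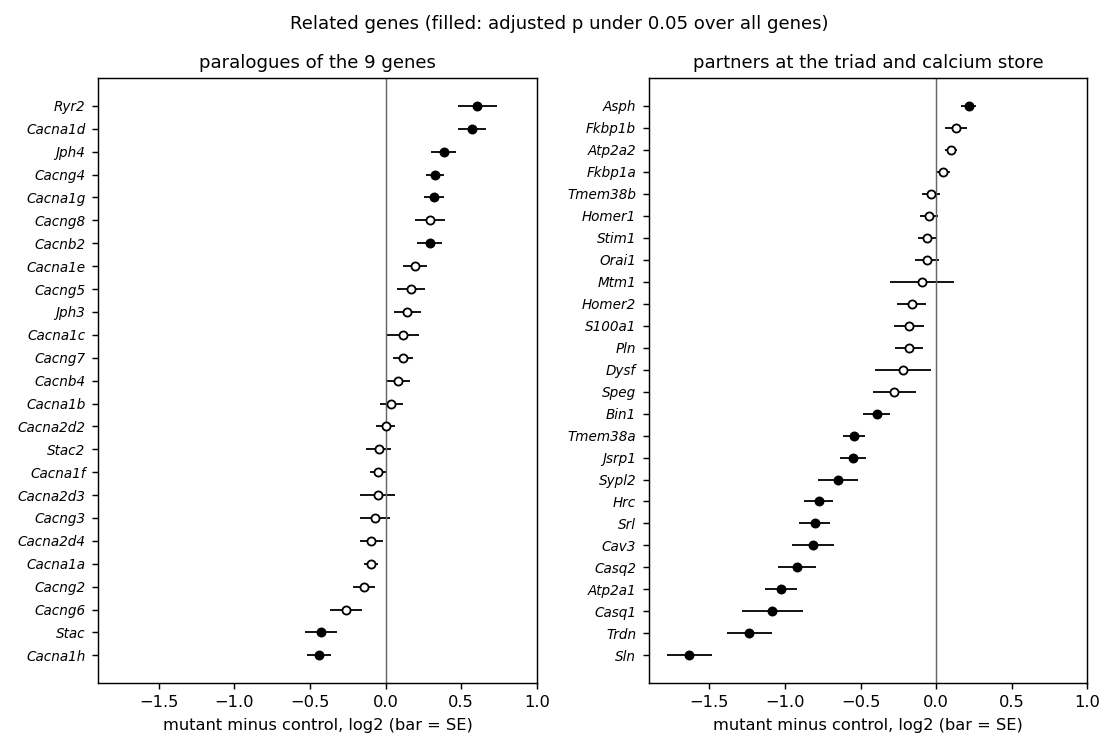
Mutant minus control difference (x axis, log2) with its SE for 25 paralogues (left) and 26 triad and calcium store partners (right), sorted by value; filled points passed the test. Paralogues lie on both sides of 0, and the partners that passed lie below 0 except Asph.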

How the data were processed

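The authors deposited 1 table of log2 signals per probe set, made by RMA, per the submitters' processing notes. This method corrects background, equalises arrays and summarises probes into one value per probe set. Software, version and logarithm base are not stated in the labels, and the values, 2.57 to 15.09, were read as base 2. RMA hides a shift shared by most genes and can compress changes of dim probe sets. The number of arrays, 6 per group, limits the precision.

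The 64 control probe sets among 45101 were dropped. The platform annotation gave 34945 probe sets 1 symbol, 932 several and 9160 none. The symbols of all 9 members matched RefSeq names of assembly GRCm38.p6 by gene identifier. Each gene took its brightest probe set over 12 arrays. The genotypes were compared by lmFit and eBayes of limma 3.58.1 under R 4.3.3 (2-sided, genotype as the only term), adjusted over all 18193 genes, and probe set p-values over all probe sets. On simulated data for this comparison, over 18193 genes, 86% of genes given a log2 change of 0.5 and 97% of those given 1 were recovered, and 3.68% of calls were unchanged genes. The simulated noise was normal and independent between genes, and few genes were changed. These rates therefore need not hold for the real arrays, where many genes shift together. Intervals are 95%, from limma for single genes and with unequal variances for pairs.

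The members, lists, pairs and alternatives were chosen with earlier results of these data known. Named genes were the members, up to 4 passing genes of each related list by smallest p, the 5 genes most like Cacna1s and Ryr1, and Smad4. The alternatives were quantile normalisation, centring on array medians, averaging the probe sets of each gene, single probe sets, leaving out dim probe sets, robust trended variance, weighting of arrays, the replicate block, a covariate of Y-linked genes, an unequal-variance test, subtraction of the muscle mean, each array left out in turn, and 3 sets of arrays that an earlier analysis found to stand apart. A free-text label describing embryos of another kind was not used.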

Additional observations from a re-analysis of the deposited data

Results flagged for a closer look

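Control 1 lay far from the other controls for 2 of the 9 genes. Cacng1 read 8.38 there, against 8.95 to 9.21 on the other 5 controls, and Cacna2d1 read 10.51, against 11.01 to 11.22. Smad4 read 11.58 in mutant 1, against 12.18 to 12.30 on the other 5 mutants, and mutant 1 was also the lowest array for 6 of the 9 genes. In all 3, the gap to the nearest array of the genotype, divided by the range of that genotype, exceeded Dixon's 95% limit for 6 samples. Of 22 groups of values examined (the 9 genes, Smad4 and the muscle marker mean in each genotype) these were the only ones, and chance gives about 1 in 20. The 2 values of control 1 come from the same array, so they are not independent. On control 1 the mean of the differentiated muscle markers was −0.35 relative to the control mean, that of cartilage markers 0.28 and that of oral epithelium markers −0.30. The part of these shifts was not tested. Without control 1 the differences were −0.97 for Cacng1 and −0.46 for Cacna2d1, and without mutant 1 that of Smad4 was −0.037, an alternative chosen after seeing the data.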

How the results depend on the processing

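The count of 8 genes lower in mutants was 6 to 8 under all alternatives but 2. It was 5 without control 3, mutant 4 and mutant 6, where Cacnb1 (−0.44, adjusted p = 0.0570, limma), Cacna2d1 and Jph1 lost their calls with fewer samples tested, and 0 relative to the muscle marker mean. Cacna1s, Ryr1, Cacng1 and Stac3 kept their calls under every alternative except the muscle subtraction. So did Jph2 by its brightest probe set. Leaving out 1 array gave 7 or 8 genes, the lost gene being Cacna2d1, which also lost its call under 11 further settings and probe sets and read 0.00123 by a dim probe set. The unequal-variance test ended the calls of Cacna2d1 (adjusted p = 0.123) and Jph1 (0.0549).

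Relative to muscle markers Cacnb1, Cacna2d1, Ryr3 and Jph1 turned to 0.24, 0.39, 0.67 and 0.21, by the construction of that scale. The 2 genes higher on it became 4 with the mean of all probe sets, the replicate block or the unequal-variance test, and 1 with dim probe sets left out (Ryr3 is then not tested) or without mutants 1 and 2; with 1 array left out there were 2 or 3. None was lower in the fit as reported. Stac3 passed as lower with quantile normalisation (−0.28, adjusted p = 0.0431, limma), the trended variance and without mutant 5 (−0.35), Cacna1s with the unequal-variance test (−0.24), and both with the mean of all probe sets (−0.33 and −0.30) and the replicate block. Over all genes 2020 passed, 875 without mutants 1 and 2, 836 without control 3, mutant 4 and mutant 6, 17863 relative to muscle markers, and 1398 to 2103 with 1 array left out. Among pairs, Cacna1s minus Stac3 was −0.091 without mutants 1 and 2 and −0.030 to 0.10 with 1 array left out, Cacna1s minus Ryr1 was −0.13 to 0.047, and Jph1 minus Jph2 was 0.15 to 0.28. With other probe sets the last was −0.043, 0.56 (adjusted permutation p = 0.00379) and −0.39 (0.0492). Ryr1 minus Ryr3 was −0.66 without mutants 1 and 2. The cause of these changes was not tested.

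Same-numbered mutant and control arrays correlated at −0.06 to 0.24 in their deviations, over 0.1 in 5 of 6 pairs, and 4 of 6 mutants correlated best with their own number. The labels tie the numbers to no shared litter or day, and 1 pair fell short of 0.1, so the unblocked fit was kept, though these values hint at a pairing. With the replicate block 7 of the 9 genes and 1932 genes in all passed, and Cacna2d1 did not (adjusted p = 0.0822, limma). Relative to muscle markers the block had Ryr3, Cacna2d1, Cacnb1 and Jph1 higher and Cacna1s and Stac3 lower (adjusted p = 0.00806 and 0.0245, limma).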

Other observations

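The other triad and store genes that fell, named after their values were seen, cover the calcium buffer, the membrane scaffold and the counter-ion channel of the store. The calsequestrins Casq1 and Casq2, which bind calcium inside the sarcoplasmic reticulum, fell by 1.08 and 0.92 on the log2 scale (adjusted p = 0.00381 and 0.000685, limma). The muscle caveolin Cav3 fell by 0.81, Srl, the sarcalumenin of the store, by 0.80, Sypl2, a synaptophysin relative of the triad, by 0.65, Jsrp1 by 0.55, Tmem38a, a cation channel of the store, by 0.54 and Bin1, a protein that shapes T-tubule membrane, by 0.39. Atp2a2, the calcium pump of slow muscle, heart and many other cells, differed by 0.10 and did not pass (adjusted p = 0.152, limma).

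Asph was the only triad and store gene that passed as higher, and its probe sets disagreed. This gene gives rise both to an aspartate hydroxylase made in many tissues and, through other transcripts, to the junctional protein junctin of striated muscle. The brightest of its 6 probe sets read 9.63 ± 0.04 in mutants and 9.42 ± 0.09 in controls (SD, n = 6 each, a difference of 0.22, adjusted p = 0.0115, limma). Dimmer probe sets 1425275_at and 1425274_at both fell by 0.73 (adjusted p = 0.0102 and 0.00251 over all probe sets, limma). The files do not say which transcripts each probe set detects.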
